A study of Rattus norvegicus with 294 samples.

Results

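The 8 genes described here belong to the bone morphogenetic protein (BMP) pathway: the ligands Bmp2, Bmp4 and Bmp6, the secreted antagonists Grem1 and Nog, the membrane pseudoreceptor Bambi, and the target genes Id1 and Id2. They were chosen by name among the 14217 genes with a probe set on the array, each represented by its probe set with the highest mean log2 signal, and all 8 were present. The arrays profiled osteoblasts, lining cells and osteocytes captured by laser from the L3 vertebra of female Sprague-Dawley rats. Every rat, controls included, had its ovaries removed at 6 months of age, went 8 weeks without treatment, and then received weekly subcutaneous injections of vehicle or of a sclerostin antibody (Scl-Ab, altered so that rats raise less immunity to it) at 3 or 50 mg/kg. Samples were taken on days 8, 29, 85 and 183 of dosing, and, after dosing ended, on days 197 and 267 for 3 mg/kg and on days 237 and 309 for 50 mg/kg, with vehicle rats on each of these days. The 294 arrays form 60 groups, 55 of 5 arrays, 4 of 4 and 1 of 3. Calcein, which marks bone that is being formed, was given before necropsy to help tell the surfaces of osteoblasts and lining cells apart in the capture, and 1.5 ng of RNA per capture was amplified.

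BMPs are secreted proteins that bind pairs of serine/threonine kinase receptors, which then phosphorylate Smad transcription factors. Id1 and Id2 are among the best known genes that these Smads switch on, and their proteins hold back basic helix-loop-helix factors by binding their E protein partners. Bambi resembles a receptor but lacks the kinase, and noggin (Nog) and gremlin (Grem1) bind BMPs outside the cell. BMPs drive bone formation, whereas sclerostin, secreted by osteocytes, holds back Wnt signalling in bone.

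Bambi, Id1 and Id2 each rose in osteocytes on days 29, 85 and 183 at 50 mg/kg, so the 250 bases before their annotated starts are shown, from RefSeq on the build GRCr8. 7 of the 8 members had an entry, and Bmp2 had none. Capitals mark the Smad-related motifs GGCGCC and GTCT, the latter on either strand (AGAC).
Bambi (chr17:58821004-58821253, minus strand): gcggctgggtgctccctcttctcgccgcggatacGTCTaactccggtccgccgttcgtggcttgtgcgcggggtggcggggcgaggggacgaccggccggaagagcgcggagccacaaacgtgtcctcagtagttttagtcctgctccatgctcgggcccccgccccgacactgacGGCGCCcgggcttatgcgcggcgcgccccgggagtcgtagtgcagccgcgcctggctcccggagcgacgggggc
Id1 (chr3:161671314-161671563, plus strand): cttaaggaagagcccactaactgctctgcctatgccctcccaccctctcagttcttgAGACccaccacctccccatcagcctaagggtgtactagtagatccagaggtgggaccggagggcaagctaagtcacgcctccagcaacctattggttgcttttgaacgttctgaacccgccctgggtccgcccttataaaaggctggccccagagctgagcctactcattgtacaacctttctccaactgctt
Id2 (chr6:47470996-47471245, minus strand): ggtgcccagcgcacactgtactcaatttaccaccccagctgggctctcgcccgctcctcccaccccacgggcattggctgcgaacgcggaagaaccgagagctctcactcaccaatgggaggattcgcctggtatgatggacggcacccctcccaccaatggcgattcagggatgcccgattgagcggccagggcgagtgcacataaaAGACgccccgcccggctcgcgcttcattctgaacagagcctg
The Bambi window held 1 GGCGCC and 1 GTCT match, and the Id1 and Id2 windows held 1 GTCT match each and no GGCGCC. Of 33469 windows of the same length, 8.69% held GGCGCC and 84% held GTCT or its reverse complement. CCAAT, on either strand, occurred once in the Id1 window and 3 times in the Id2 window, against 34% of all windows with a match. CTTTG, the core of the TCF/LEF motif, had 0 matches on either strand in the Bambi, Id1 and Id2 windows, against 48.2% of all windows with a match. The motifs do not overlap each other, and a match is only a description of the letters.

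All arrays of a cell type were compared on log2 of the deposited signal, and a gene is said to have risen or fallen where limma's adjusted p, over all genes tested in that comparison, was under 0.05. The labels do not say which captures came from the same rat, so the p-values measure the spread between arrays. Comparisons of the same day share their vehicle arrays and are not independent of each other. Sample titles are numbered in separate series for days 8 to 85, for day 183 and for the later days. The labels do not say what these series stand for. Comparisons with vehicle were made within a day and so within a series, while averages over the dosing days combine series. Osteocyte identity was checked in the vehicle arrays: Mepe, a matrix protein of osteocytes, had a log2 signal of 10.64 ± 1.22 (SD, n = 40) in osteocytes against 6.09 ± 1.07 in osteoblasts and 5.73 ± 1.09 in lining cells. Sost, which encodes sclerostin, was at 2.86 ± 0.22 in osteocytes and 2.88 ± 0.23 in osteoblasts, so as deposited this probe set did not mark osteocytes. The marker levels in this paragraph are deposited values, not normalized together over the cell types. In these, the median gene was 0.67 higher in osteoblasts and 0.27 higher in lining cells than in osteocytes. The osteoclast genes Ctsk and Acp5 were high in all 3 cell types, with Ctsk at 12.89 ± 0.29 in osteocytes, and the osteoblast gene Bglap was at 11.11 ± 0.59 in osteocytes, 10.42 ± 0.89 in osteoblasts and 8.30 ± 1.04 in lining cells. In such bulk captures, fewer cells of a type and less RNA per cell cannot be told apart. In each cell type 1 array stood apart in its signal range (the 90th minus the 50th percentile of its log2 values): 1 osteoblast vehicle array of day 85, 1 lining cell array of 50 mg/kg on day 8 and 1 osteocyte array of 3 mg/kg on day 29.

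Id1, Bambi, Id2 and Bmp2 rose in osteocytes at 50 mg/kg, and at that dose the other tested ligands, Bmp4 and Bmp6, passed the test at no time. Limma called none of the 6 on day 8 and 0 had an unadjusted p under 0.05, when 0.928% of the 11859 genes tested were called. On day 29, 3 of the 6 tested members rose (all genes: 6.5% called), on day 85 again 3 (10.1% called) and on day 183, 4 (6.38% called). Grem1 and Nog did not pass the filter on low values in any cell type and are described last.

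**Figure D1:**
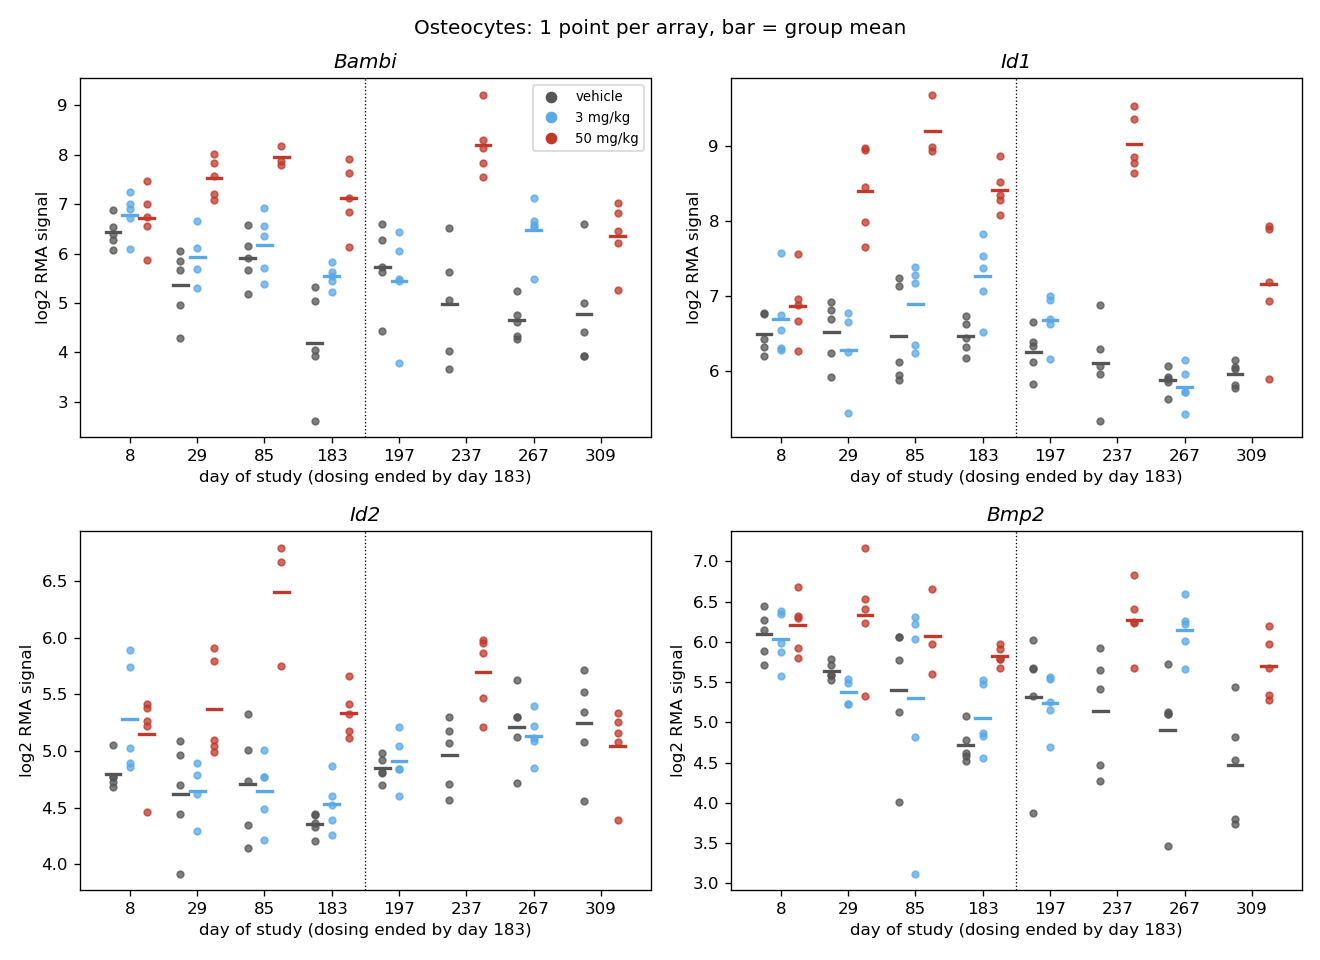
log2 RMA signal (vertical axis) of Bambi, Id1, Id2 and Bmp2 in osteocytes by day of study (horizontal axis, with a dotted line after the last dosing day), 1 point per array, the bar marking the group mean, grey for vehicle, blue for 3 mg/kg and red for 50 mg/kg. From day 29 to day 237 every Id1 array of the 50 mg/kg group lies above every vehicle array of its day.

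Id1 encodes an inhibitor of helix-loop-helix factors and rose on days 29, 85 and 183. On day 29 the vehicle osteocyte arrays read 6.24, 6.92, 5.92, 6.69 and 6.81 on the log2 scale, and the 50 mg/kg arrays 7.98, 8.94, 8.97, 7.65 and 8.45. The groups did not overlap, and the difference was 1.88 ± 0.28 (log2, SE; 3.69-fold, adjusted p = 1.53e-06). On day 85 vehicle read 5.88, 6.12, 7.13, 7.24 and 5.95, and the 3 arrays at 50 mg/kg read 8.99, 9.68 and 8.94. The gap was the widest of the dosing days for Id1, at 2.74 ± 0.33 (6.67-fold, adjusted p = 1.02e-09). On day 183 vehicle read 6.45, 6.17, 6.32, 6.63 and 6.74 against 8.08, 8.27, 8.35, 8.52 and 8.87, a difference of 1.96 ± 0.28 (3.89-fold, adjusted p = 2.85e-07). On day 8 the difference was 0.37 ± 0.28 (adjusted p = 0.625), with overlapping groups.

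Bambi, the pseudoreceptor that dampens BMP and TGF-beta receptor signalling, rose on the same days. On day 29 the vehicle arrays read 4.97, 6.06, 4.29, 5.68 and 5.86 and the 50 mg/kg arrays 7.20, 7.83, 8.01, 7.09 and 7.56. All treated arrays were above all vehicle arrays, with a difference of 2.17 ± 0.43 (4.50-fold, adjusted p = 0.00028). On day 85 vehicle read 5.91, 5.66, 6.58, 6.16 and 5.19 against 7.88, 8.19 and 7.80 (2.05 ± 0.49, adjusted p = 0.00272). With array weights in the fit, that adjusted p was 0.135. On day 183 vehicle read 5.32, 4.06, 2.62, 5.03 and 3.93 against 6.12, 7.12, 6.85, 7.91 and 7.63, a difference of 2.94 ± 0.43 (7.65-fold, adjusted p = 3.88e-07). The vehicle arrays were widely spread on that day, and the groups still did not overlap.

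Id2, a second Id family inhibitor, rose by less. On day 85 vehicle read 5.33, 4.14, 4.35, 5.01 and 4.74 against 6.80, 5.75 and 6.67 at 50 mg/kg, a difference of 1.69 ± 0.25 (3.23-fold, adjusted p = 3.47e-07). On day 183 vehicle lay between 4.21 and 4.44 and 50 mg/kg between 5.12 and 5.66, without overlap (0.98 ± 0.21, adjusted p = 0.000788). On day 29 the groups overlapped (3.92 to 5.09 against 4.99 to 5.91), and the difference of 0.74 ± 0.21 (adjusted p = 0.0183) lost its call without vehicle array 3 or without 50 mg/kg array 2 or 3, with an adjusted p of up to 0.115, and in a fit of the compared groups alone (adjusted p = 0.109). The mean of the 2 Id2 probe sets gave smaller changes, of 1.03 on day 85 and 0.52 on day 183. The other probe set had a mean of 2.80 over all arrays.

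Bmp2, a ligand that induces bone formation, rose on day 183, when vehicle read 4.78, 4.58, 4.62, 5.08 and 4.53 and 50 mg/kg read 5.98, 5.78, 5.92, 5.68 and 5.78. The groups did not overlap (1.11 ± 0.36, adjusted p = 0.0473), but the call ended when any of 9 of the 10 arrays was left out (each but vehicle array 4; adjusted p up to 0.0991). It also ended with no filter, with the signal range as covariate and with the mean of its 2 probe sets, of which the other read 2.69 on average (change 0.56 with that mean). On days 29 and 85 the changes of 0.70 ± 0.36 and 0.67 ± 0.42 did not pass (adjusted p = 0.289 and 0.341).

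The rise was larger at the higher dose. Over the 4 dosing days, the 50 mg/kg osteocytes were above the 3 mg/kg osteocytes by 1.44 ± 0.15 (log2, SE) for Id1, 1.22 ± 0.23 for Bambi, 0.79 ± 0.11 for Id2 and 0.67 ± 0.19 for Bmp2, with adjusted p from 2.24e-12 to 0.00859. These 4 of 6 calls stand beside 15% of all genes called in that comparison, and each held in all 8 alternative settings and without any single array. Bmp4 and Bmp6 differed between doses by 0.01 (95% interval -0.30 to 0.32) and 0.03 (-0.16 to 0.23). At 3 mg/kg alone limma called no member on any dosing day, and 1, 0, 0 and 2 of the 6 had an unadjusted p under 0.05 on days 8, 29, 85 and 183 (0.00843%, 0%, 1.46% and 0% of all genes called). The largest of these was Bambi on day 183, at 5.83, 5.45, 5.55, 5.62 and 5.22 (1.35 ± 0.43, adjusted p = 0.713). With both doses averaged, Id1 rose on day 85 (1.58 ± 0.26) and day 183 (1.38 ± 0.24), Id2 on day 85 (0.82 ± 0.19) and Bambi on day 183 (2.14 ± 0.37), beside 6.3% and 2.06% of all genes called on those days, and none of the 6 was called on days 8 and 29 (0.287% and 0.211% of all genes), with 2 and 3 at an unadjusted p under 0.05. The Id2 call ended with array weights and in a fit of the compared groups alone (adjusted p up to 0.201).

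After dosing with 50 mg/kg stopped, Id1, Bambi and Bmp2 were above vehicle on both later days and Id2 on the first. On day 237, 54 days after day 183, 4 of the 6 members were above vehicle, beside 13.2% of all genes called. Id1 read 8.65, 8.77, 8.85, 9.54 and 9.35 against 5.34, 6.29, 6.06, 6.88 and 5.95 in vehicle (2.93 ± 0.28, 7.61-fold, adjusted p = 3.52e-13). Bambi read 7.56, 8.13, 7.83, 8.30 and 9.21 against 5.06, 6.53, 4.04, 5.62 and 3.67 (3.22 ± 0.43, 9.34-fold, adjusted p = 1.63e-08). Neither pair of groups overlapped. Id2 (0.73 ± 0.21, adjusted p = 0.0125) and Bmp2 (1.13 ± 0.36, adjusted p = 0.0253) rose with overlapping groups. The Id2 call ended without vehicle array 3 (adjusted p = 0.0522), and the Bmp2 call without vehicle array 3 or 5 or 50 mg/kg array 5 (adjusted p up to 0.119) or with the mean of its probe sets (0.55, adjusted p = 0.097).

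By day 309, 126 days after day 183, 3 of the 6 were still above vehicle (16.4% of all genes called). Bambi read 7.02, 6.46, 5.27, 6.81 and 6.22 against 4.41, 6.60, 3.94, 3.92 and 4.99 (1.58 ± 0.43, adjusted p = 0.00583). Id1 read 7.93, 7.89, 5.89, 7.18 and 6.93 against 6.15, 5.78, 5.81, 6.02 and 6.05 (1.20 ± 0.28, adjusted p = 0.00136). The treated array 3 was the lowest for both genes and lay within the vehicle range. For Bambi the treated arrays 2 and 5 (6.46 and 6.22) lay within it too. Bmp2 rose by 1.23 ± 0.36 (adjusted p = 0.0119), a call lost without vehicle array 3 (adjusted p = 0.0515), and Id2 stood at -0.20 ± 0.21 (adjusted p = 0.576). The Bambi call ended in a fit of the compared groups alone (adjusted p = 0.054). The responses on day 237 and day 183, each against its own vehicle, were also compared directly: Id1 differed by 0.97 ± 0.40 (adjusted p = 0.436) and Bambi by 0.29 ± 0.61 (adjusted p = 0.935), and limma called none of the 6 members, 1 with an unadjusted p under 0.05 (0.0675% of all genes called). Day 183 and day 237 lie in different series of sample title numbers, so time and series cannot be told apart in this comparison.

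After 3 mg/kg stopped, limma called no member on day 197, and none had an unadjusted p under 0.05 (1.11% of all genes called). On day 267, 84 days after day 183, 2 of 6 rose (3.63% of all genes called). Bambi read 6.58, 5.48, 6.66, 7.13 and 6.54 against 4.76, 5.25, 4.62, 4.34 and 4.28, without overlap (1.83 ± 0.43, adjusted p = 0.00625). Bmp2 rose by 1.24 ± 0.36 (adjusted p = 0.0327) with overlap, a call that ended without vehicle array 5 (0.88, adjusted p up to 0.275) or without 3 mg/kg array 1, 3, 4 or 5. With the signal range as covariate, the mean of which was 3.39 in treated and 3.20 in vehicle arrays, Bambi changed by 1.43 (adjusted p = 0.051), and the Bmp2 call ended there and with quantile normalization. Id1 read 5.42, 6.14, 5.72, 5.95 and 5.72 against 5.93, 5.90, 6.06, 5.85 and 5.63, and did not follow Bambi (-0.08 ± 0.28, adjusted p = 0.935).

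Bmp4 and Bmp6, ligands of bone and marrow, gave no call in osteocytes. Bmp4 lay between 2.22 and 4.57 over all 97 osteocyte arrays and was above its array's median in 55 of them. Its largest difference was on day 267 after 3 mg/kg (0.91 ± 0.29, adjusted p = 0.0586), and at 50 mg/kg it ranged from -0.35 on day 8 to 0.60 on day 237. Bmp6 lay between 3.43 and 5.14, and its changes at 50 mg/kg ran from -0.30 on day 8 to 0.30 on day 183, with adjusted p of 0.412 or more.

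**Figure D2:**
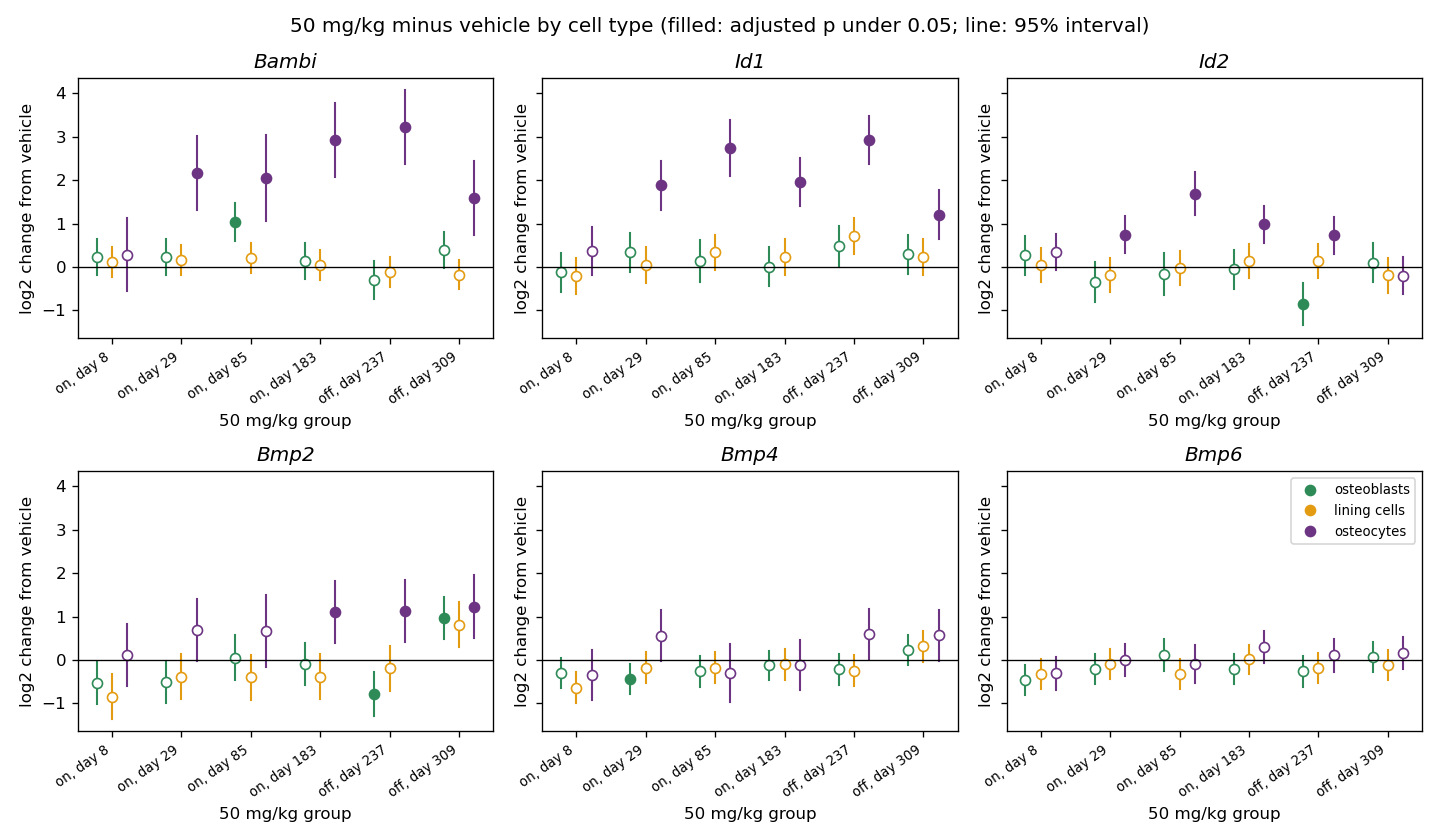
log2 change from vehicle (vertical axis) for the 50 mg/kg groups by day, on and off dosing (horizontal axis), in osteoblasts, lining cells and osteocytes. Filled points passed the test and lines are 95% intervals: the osteocyte points of Bambi and Id1 are filled from day 29 to day 309, with Id1 at 1.88, 2.74, 1.96, 2.93 and 1.20.

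Marker genes of several cell types moved with these members in osteocytes. Of the 5 osteocyte markers, 5, 4, 3, 4 and 3 rose at 50 mg/kg on days 29, 85, 183, 237 and 309, Dmp1, Mepe and Pdpn on each. Their summed linear signal on day 183 lay between 1413 and 2750 in vehicle and between 9549 and 14170 at 50 mg/kg. Of 6 smooth muscle and pericyte markers, 1, 4, 3, 4 and 2 rose, and their summed signal on day 237 was 67.49 to 92.18 in vehicle and 175 to 380.2 after 50 mg/kg. Of 9 endothelial markers, 4, 6 and 6 rose on days 85, 183 and 237, and none passed on days 29 and 309. Of 4 osteoclast markers, 2 fell on days 29 and 85 and 1 on day 183. On day 237, 5 of 7 erythroid and 3 of 5 osteoblast markers fell. On day 309, 4 of 5 osteoblast, 3 of 5 skeletal muscle and 1 of 4 osteoclast markers rose, and 3 of 3 granulocyte and 3 of 7 erythroid markers fell. The osteoclast list then averaged 9.04 (8.78 to 9.29) against 8.68 (8.54 to 8.75) in vehicle, the granulocyte list 10.52 against 11.24 and the erythroid list 7.32 against 8.25. The part of these changes in the rise of Id1, Bambi, Id2 and Bmp2 was not tested. At 3 mg/kg on day 183 the summed osteocyte markers read 3522 to 7225, above the vehicle range, while the summed smooth muscle markers read 75.02 to 113.4 against 70.62 to 96.18. On day 267, after 3 mg/kg, Dmp1 and Mepe rose, and the summed osteocyte markers read 3795 to 6970 against 1222 to 4358 in vehicle.

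**Figure D3:**
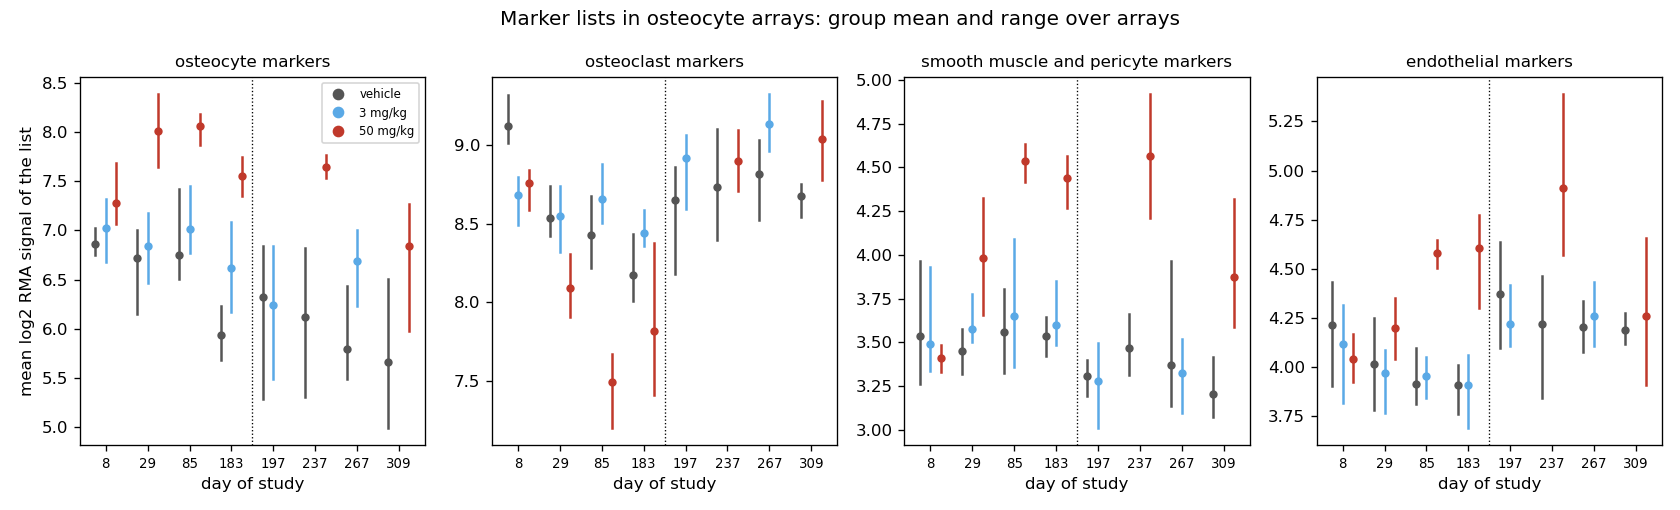
Mean log2 RMA signal of 4 marker lists (vertical axes) in osteocyte arrays by day (horizontal axis) and treatment, points for group means and lines for the range over arrays. The osteocyte list averaged 5.93 in vehicle and 7.55 at 50 mg/kg on day 183, and the smooth muscle list 3.54 and 4.44.

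Other genes of the pathway were taken from a list of 52, of which 47 were on the array and 40 were tested in osteocytes. At 50 mg/kg, 9 rose on day 29, 8 on day 85, 7 on day 183, 11 on day 237 and 6 on day 309, and none fell, beside 6.5%, 10.1%, 6.38%, 13.2% and 16.4% of all genes called. These shares of all genes count calls in either direction. The 6 of 40 on day 309 are a smaller share than the 16.4%, but of the 11859 genes tested then 636 rose and 1305 fell. The median change of the 40 on day 237 was 0.21. Among antagonists and modulators, 3 of 8 rose on day 237, among them Twsg1, which encodes a BMP-binding protein (1.76 ± 0.22, adjusted p = 3.35e-09). Among the transcription factor genes known as BMP targets 5 of 9 rose, including Dlx3, a homeobox gene (2.11 ± 0.26, adjusted p = 1.26e-09), together with Dlx5, Hes1, Hey1 and Id3. Among 5 ligands Bmp7 rose, among 8 receptors and co-receptors Acvrl1, and among 8 Smads and their regulators Smad9. With both doses averaged, Crim1, a transmembrane protein that binds BMPs, rose by 1.54 ± 0.22 on day 85 and 1.17 ± 0.21 on day 183, Htra1, a secreted protease, by 1.03 ± 0.22 on day 85, and Twsg1 by 0.81 ± 0.20 on day 29 and 1.11 ± 0.19 on day 183. After 3 mg/kg, Dlx5 (1.26 ± 0.30) and the E protein gene Tcf4 (0.92 ± 0.27) were among 5 that rose on day 267. On day 309 Htra1 (1.66 ± 0.24) and Dlx5 (1.20 ± 0.30) were among the 6. Between doses, 14 of the 40 were higher at 50 than at 3 mg/kg and none lower, beside 15% of all genes called.

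**Figure D4:**
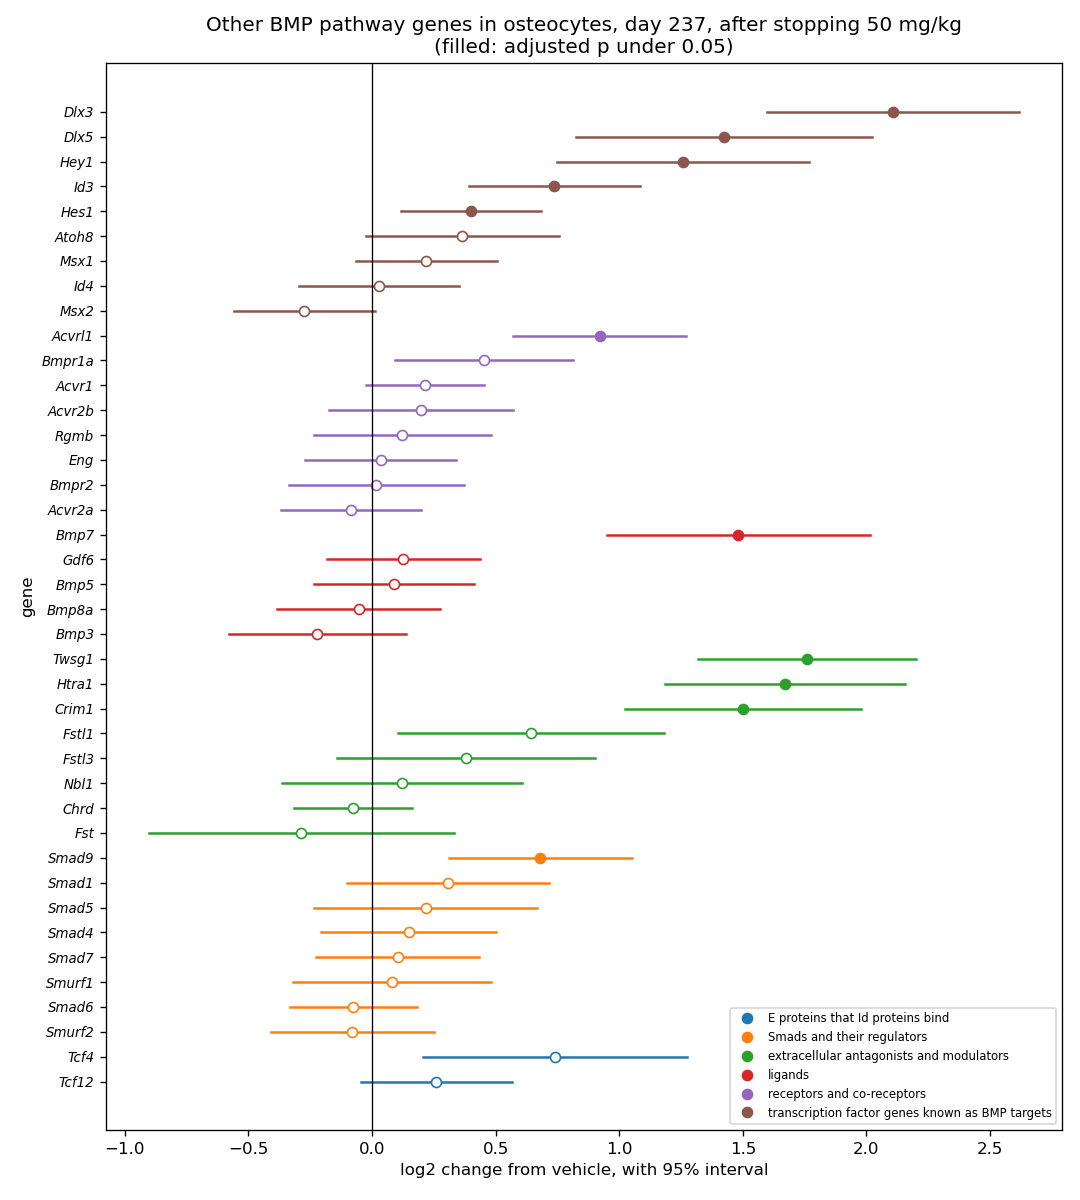
log2 change from vehicle with 95% intervals (horizontal axis) for the 40 other pathway genes tested in osteocytes (vertical axis), on day 237 after 50 mg/kg stopped, coloured by role. The 11 filled points passed the test, from Hes1 at 0.40 to Dlx3 at 2.11.

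In osteoblasts Bambi, Bmp2, Id2 and Bmp4 each passed the test at 1 or 2 times, and no member moved the same way at more than 1 time. Of the averaged and stopped comparisons, day 85 had 1 call among 6 members, day 237 had 2 and day 309 had 1. Limma called none on days 8, 29, 183, 197 and 267, where 3.64%, 15%, 3.29%, 0.0789% and 0% of all genes were called and 1, 0, 0, 0 and 0 members had an unadjusted p under 0.05. Bambi rose on day 85, when 50 mg/kg arrays read 5.03, 5.30, 4.06 and 4.81 and vehicle read 3.81, 4.05, 3.92, 4.00 and 3.05. The groups did not overlap at 50 mg/kg (1.03 ± 0.22, adjusted p = 0.00194; 4.47% of all genes called), and that call held without any single array but ended in a fit of the compared groups alone (adjusted p = 0.064). With the doses averaged Bambi rose by 0.69 ± 0.18 (adjusted p = 0.0313; 1.76% of all genes called), which ended without vehicle array 5, 3 mg/kg array 5 or 50 mg/kg array 1 or 2 (adjusted p up to 0.173), and with array weights, with the signal range as covariate and in a fit of the compared groups alone (up to 0.168). Id2 did not follow it, at -0.04 ± 0.20 (adjusted p = 0.949), nor did Id1, at 0.20 ± 0.20 (adjusted p = 0.663). In the same arrays 4 of 5 osteoblast and 5 of 9 endothelial markers rose at 50 mg/kg, as did 4 of 5 megakaryocyte markers and the osteocyte marker Pdpn, and 2 of 3 osteoclast markers fell, and the summed osteoblast markers read 10900 to 16710 against 1701 to 8514 in vehicle. The megakaryocyte list averaged 9.06 (8.91 to 9.25 over arrays) against 8.17 (7.83 to 8.49) in vehicle, without overlap, and the B-lineage list 5.27 against 5.79, with overlap and no call. Their part in the Bambi difference was not tested.

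After 50 mg/kg stopped, osteoblast Bmp2 was lower than vehicle on day 237 and higher on day 309. On day 237 it read 3.99, 3.46, 2.68 and 3.99 against 4.06, 4.49, 4.45, 4.07 and 4.48 (-0.78 ± 0.26, adjusted p = 0.0355), and on day 309 it read 4.49, 4.38, 4.97, 4.14 and 4.12 against 3.47, 3.65, 3.10, 3.20 and 3.89 (0.96 ± 0.24, adjusted p = 0.00711). Neither pair overlapped. The calls stand beside 10.7% and 10.5% of all genes called on these days, and the share of all genes without overlap is not given here. Id2 fell on day 237 from 6.30, 6.81, 6.24, 6.53 and 6.21 to 5.22, 5.87, 5.24 and 5.96 (-0.85 ± 0.24, adjusted p = 0.0152). With the signal range of each array as covariate, all of these 3 calls ended, with Bmp2 at -0.49 on day 237 and 0.53 on day 309 and Id2 at -0.67. The Bmp2 call on day 237 also ended with the mean of its probe sets (-0.44), that on day 309 in a fit of the compared groups alone (adjusted p = 0.0545), and the Id2 call with quantile normalization (-0.70). The mean signal range was 3.44 in vehicle and 3.22 in treated arrays on day 237, and 3.08 and 3.41 on day 309. Marker lists moved in these arrays too. On day 237 the B-lineage list averaged 5.07 (4.89 to 5.23) against 5.72 (5.47 to 5.92) in vehicle, without overlap, and the osteoblast list 8.73 against 9.34, with overlap, 1 of its 5 genes rising and 1 falling. On day 309 the osteoclast list averaged 8.41 (8.29 to 8.64) against 7.71 (7.41 to 8.23), without overlap, and 2 of its 3 tested genes rose. Their part in the Bmp2 and Id2 differences was not tested. Single arrays ended them too: on day 237 vehicle 2, 3 or 5 or treated 2 or 3 for Bmp2 (adjusted p up to 0.261) and vehicle 2 or treated 1 or 3 for Id2 (up to 0.0753), and on day 309 vehicle 3 or treated 3 for Bmp2 (up to 0.0614). In osteoblasts Bmp4 was low, above its array's median in 18 of 97 arrays. Bmp4 fell on day 29 at 50 mg/kg (-0.43 ± 0.17, adjusted p = 0.0476), with overlapping groups of 2.59 to 3.53 and 2.91 to 4.20, on a day when 28.4% of all genes were called. That call ended without vehicle array 2 or 5 or 50 mg/kg array 1, 2 or 4 (adjusted p up to 0.316), with the signal range as covariate (-0.27, adjusted p = 0.444), with no filter and when fitted on the compared groups alone. Of the other pathway genes 34 were tested in osteoblasts. On day 29 with the doses averaged 4 rose, led by Nbl1, a BMP antagonist (0.48 ± 0.15), and Gdf6, a ligand (0.47 ± 0.15). On that day 3 fell, led by Smad1, a BMP signal transducer (-0.82 ± 0.18), and the E protein gene Tcf12 (-0.51 ± 0.14), beside 15% of all genes called. The receptor gene Acvr2a fell on day 8 (-0.47 ± 0.14; 3.64% of all genes called). On day 237 the receptor gene Acvr2b rose (0.59 ± 0.19), and Smad5 (-0.62 ± 0.21) and Twsg1 (-0.61 ± 0.18) fell. On day 309, 3 rose, led by Smad5 (0.62 ± 0.20) and Smad1 (0.60 ± 0.21), and none fell. Of all genes 10.7% and 10.5% were called on these 2 days.

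In lining cells limma called 1 member over the averaged and stopped comparisons. Bmp2 was lower on day 8 with the doses averaged, at 3.43, 4.15, 3.33, 4.30 and 3.70 on 3 mg/kg and 4.20, 4.03, 3.56, 3.87 and 3.85 on 50 mg/kg against 4.97, 5.11, 5.38, 3.71 and 4.57 in vehicle. The difference was -0.91 ± 0.23 (adjusted p = 0.043; 0.31% of all genes called), with overlap only through vehicle array 4. It lost its call when any of 10 of the 15 arrays was left out (vehicle 1, 2 or 3, 3 mg/kg 1, 3 or 5, or 50 mg/kg 2, 3, 4 or 5; adjusted p up to 0.383). It also ended with no filter, without the array of outlying signal range, in a fit of the compared groups alone (adjusted p up to 0.277) and with the mean of its probe sets (-0.42). On days 29, 85, 183, 197, 267, 237 and 309 limma called none, beside 0.0431%, 0.0776%, 0.0517%, 0.0603%, 1.08%, 1.45% and 0.405% of all genes, with 0, 2, 0, 0, 1, 1 and 1 members at an unadjusted p under 0.05. Id1 in lining cells stood 0.72 ± 0.21 above vehicle on day 237 after 50 mg/kg (adjusted p = 0.053) and Bmp2 0.81 ± 0.26 above on day 309 (adjusted p = 0.148). Of 35 other pathway genes tested, limma called Msx1, a homeobox gene, on day 237 (0.50 ± 0.13) and none in the other averaged or stopped comparisons.

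The responses of the cell types were then compared directly, as the difference between their changes from vehicle with both doses averaged. Over the 4 dosing days the osteocyte response exceeded that of osteoblasts by 0.99 ± 0.18 for Bambi (osteoblasts minus osteocytes -0.99, adjusted p = 6.68e-05), by 0.95 ± 0.15 for Id1 (-0.95, adjusted p = 1.24e-06) and by 0.53 ± 0.13 for Id2 (-0.53, adjusted p = 0.00793), beside 3.57% of all genes called. Against lining cells the differences were -1.19 ± 0.18 for Bambi, -0.92 ± 0.15 for Id1, -0.54 ± 0.13 for Id2 and -0.69 ± 0.18 for Bmp2 (adjusted p from 3.6e-07 to 0.0157), beside 2.67% of all genes called. Bambi exceeded its array's median in 48 of 100 lining cell arrays, against 96 of 97 osteocyte arrays. Small changes of Bambi in lining cells could therefore be missed. On day 183 alone Bambi differed by -1.95 from osteoblasts and -2.09 from lining cells, and Id1 by -1.21 and -1.16, beside 0.488% and 0.64% of all genes called. Between osteoblasts and lining cells limma called no difference in response among the 6 tested members over the dosing days, and 0 had an unadjusted p under 0.05 (95% intervals of -0.15 to 0.57 for Bambi and -0.33 to 0.27 for Id1; 0% of all genes called). On day 183 alone, too, none of the 6 was called and 0 had an unadjusted p under 0.05 (0.024% of all genes called).

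In vehicle rats, osteocytes had the highest Bambi and Bmp2. The 3 cell types appear to have been normalized apart, with the median gene 0.67 higher in osteoblasts than in osteocytes as deposited, so the 120 vehicle arrays were quantile normalized together. Bambi then averaged 5.60 ± 1.02 (SD, n = 40) in osteocytes, 3.81 ± 0.48 in osteoblasts and 3.26 ± 0.36 in lining cells, with differences of -1.79 ± 0.13 (osteoblasts minus osteocytes), -2.34 ± 0.13 (lining cells minus osteocytes) and 0.55 ± 0.13 (osteoblasts minus lining cells), all called. Bmp2 averaged 5.58 ± 0.74 in osteocytes against 3.73 ± 0.59 in osteoblasts and 3.82 ± 0.62 in lining cells, and the latter did not differ beyond their spread (adjusted p = 0.549). The differences of Bambi and Bmp2 from osteocytes held their sign and call in the 4 alternatives, where they ran from -1.79 to -1.03 and from -1.85 to -1.07 for osteoblasts and from -2.34 to -2.02 and from -1.76 to -0.95 for lining cells. That of Bambi between osteoblasts and lining cells held too, from 0.55 to 0.98. Of all genes 63.8%, 58.5% and 33.5% were called between osteoblasts and osteocytes, lining cells and osteocytes, and osteoblasts and lining cells, and the 13 calls among 6 members and 3 pairs are to be read against these shares.

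**Figure D5:**
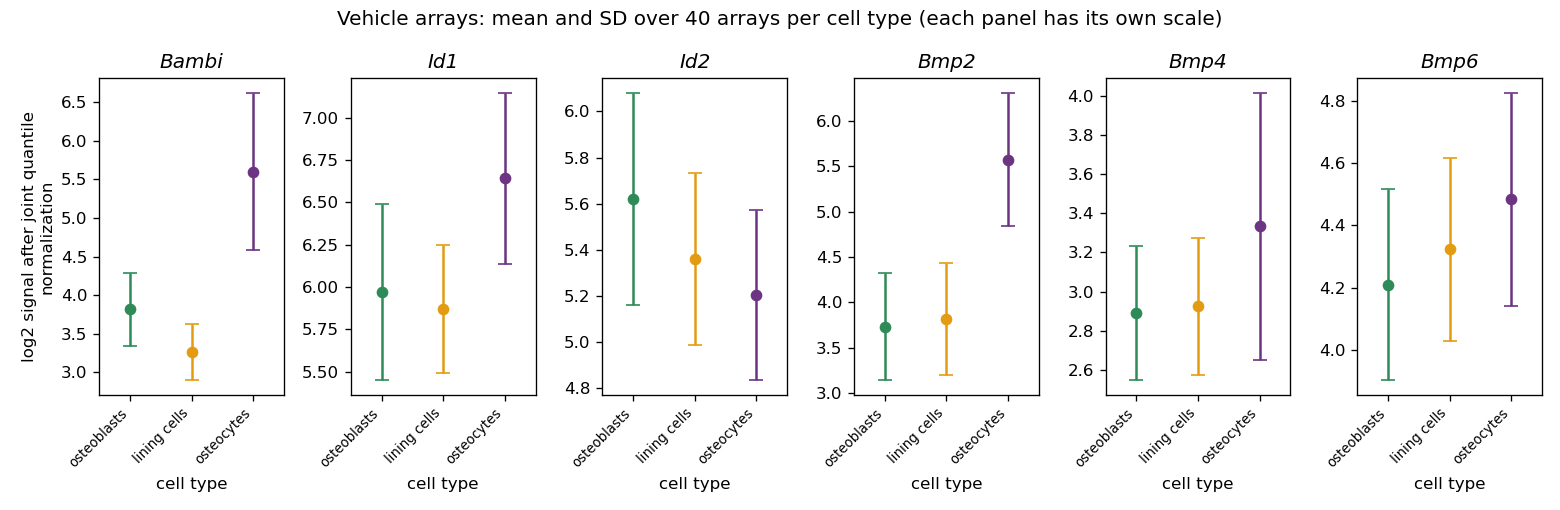
Mean log2 signal and SD (vertical axes, a scale for each panel) over 40 vehicle arrays of each cell type (horizontal axis), after joint quantile normalization. Bambi stood at 5.60 in osteocytes against 3.81 and 3.26, while Bmp6 stood at 4.48, 4.21 and 4.32.

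Id1 in vehicle averaged 6.64 ± 0.51 in osteocytes, 5.97 ± 0.52 in osteoblasts and 5.87 ± 0.38 in lining cells. It was lower in osteoblasts than osteocytes after joint normalization (-0.67 ± 0.08) but 0.13 higher as deposited. Id2 averaged 5.62 ± 0.46 in osteoblasts, 5.36 ± 0.37 in lining cells and 5.20 ± 0.37 in osteocytes, and osteoblasts exceeded osteocytes by 0.42 ± 0.08 and lining cells by 0.26 ± 0.08, while lining cells and osteocytes were not called apart (0.16 ± 0.08, adjusted p = 0.065). Sign and call of both osteoblast differences held in the 4 alternatives, but their size ran from 0.30 to 1.24 against osteocytes and from 0.15 to 0.79 against lining cells. Bmp4 averaged 3.33 ± 0.68, 2.89 ± 0.34 and 2.92 ± 0.35 in osteocytes, osteoblasts and lining cells, and the osteoblast difference of -0.44 became 0.03 as deposited. The Bmp6 differences (-0.27 and -0.16 from osteocytes) turned sign as deposited, to 0.52 and 0.13. Of 40 other pathway genes, 26 were lower in osteoblasts than in osteocytes and 3 higher, and 25 were lower in lining cells and 3 higher. The median change of the 40 was -0.28 and -0.33, against 0.00126 and 0.0145 over all genes. In these comparisons 63.8% and 58.5% of all genes were called in either direction, and the shares for each direction are not given here. Without regard to direction, most of these calls would be met among any 40 genes. The largest were Htra1 (-2.20 ± 0.08 and -2.00 ± 0.08), Dlx5 (-2.05 ± 0.10 and -2.43 ± 0.10) and Dlx3 (-1.79 ± 0.09 and -1.91 ± 0.09), with Fstl1, a secreted glycoprotein (-1.35 ± 0.11, osteoblasts), and Tcf4 (-1.24 ± 0.09, lining cells). Between osteoblasts and lining cells, Smad5 (0.52 ± 0.07) and the receptor gene Acvr2a (0.51 ± 0.06) led.

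Vehicle levels also shifted with time in the bone surface cells. From day 8 to day 85, osteoblast Bambi fell by 1.29 ± 0.21, Bmp2 by 1.21 ± 0.24, Bmp6 by 0.72 ± 0.17 and Bmp4 by 0.63 ± 0.17 on the log2 scale (adjusted p from 2.23e-06 to 0.00253). On the same span 40.6% of all osteoblast genes were called. The osteoblast marker list went in mean from 10.54 (10.37 to 10.68) to 9.05 (8.02 to 9.80) and the osteoclast list from 8.95 to 8.13. The osteocyte list went from 5.43 (5.32 to 5.78) to 4.69 (4.43 to 5.28). None of these lists overlapped between the days, and their part in the falls of the members was not tested. Bmp4 exceeded its array's median in 8 of 40 vehicle osteoblast arrays. In lining cells Bmp2 fell by 1.20 ± 0.26 and Bambi by 0.75 ± 0.17 (3.84% of all genes called). Both calls ended in a fit of the compared groups alone (adjusted p = 0.0722 and 0.0516), and Bmp2 changed by -0.59 with the mean of its probe sets. The osteoblast list averaged 8.94 and 8.19 and the osteoclast list 9.11 and 8.31 on days 8 and 85 in lining cells. The osteocyte list averaged 4.75 and 4.24 there, with overlap, and the part of these lists was not tested there either. In osteocytes no member was called and none had an unadjusted p under 0.05 (35.8% of all genes called). Their median change over the 6 tested members was still -0.42 in osteocytes, against -0.43 in lining cells and -0.67 in osteoblasts. The cell types were not compared with each other on this span. Age and time of processing cannot be told apart in these contrasts. The osteoblast Bmp6 fall turned to 0.15 with the mean of its 4 probe sets, and with the signal range as covariate the Bmp2, Bmp4 and Bmp6 calls ended. In that span the mean of the Bambi vehicle arrays in osteoblasts went from 5.05 ± 0.26 to 3.77 ± 0.41 (SD, n = 5). From day 197 to day 309 no member was called in any of the 3 cell types, with 1, 0 and 2 at an unadjusted p under 0.05 in osteoblasts, lining cells and osteocytes (25.5%, 5.84% and 2.85% of all genes called).

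Over the 60 group means of log2 values, each gene centred on its mean over the 20 groups of a cell type, the genes most like Bambi were Jam2 (Pearson's r = 0.93), Mef2c (0.91) and Ctnna1 (0.91), of 11126 genes compared. For Id1 they were Aldoc (0.91), Coro6 (0.90) and LOC100912227 (0.90), for Id2 Itm2b, Dpysl2 and Nudt4 (each 0.80), for Bmp2 Fat1 (0.88), Lhfpl6 (0.85) and Rhobtb1 (0.84), for Bmp4 Lhfpl6 (0.80), Lamb1 (0.79) and Cdh11 (0.78), and for Bmp6 Kiaa0040 (0.85), Ccdc80 (0.83) and Slc35a5 (0.83). Among the members themselves, within the 20 osteocyte group means Bambi followed Bmp2 (r = 0.88), Id1 (0.80) and Id2 (0.69), and over the 20 osteoblast group means Bambi gave 0.80 with Bmp2, 0.65 with Id2 and -0.09 with Id1. Groups of a cell type share their normalization and groups of a day share their time of sampling, so these values are descriptions.

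The antagonists Grem1 and Nog stayed near the bottom of the scale in all 3 cell types. Grem1 lay between 1.89 and 3.12 over the osteocyte arrays, between 2.17 and 3.09 over the osteoblast arrays and between 1.98 and 2.85 over the lining cell arrays, and exceeded its array's median in 1 of the 294 arrays. Nog lay between 1.79 and 2.95 and exceeded it in none. Their probe sets stood at the 4.70th and 2.97th percentiles of mean signal. Without a detection call per array, this says that no signal well above the lowest probe sets was seen, and changes at this level carry little. In a fit without the filter, the lowest adjusted p of Grem1 against vehicle was 0.0624 (osteoblasts, day 183, both doses, -0.29 ± 0.09), and Nog was higher in vehicle arrays on day 85 than on day 8, by 0.25 ± 0.10 in osteoblasts (adjusted p = 0.0322) and 0.29 ± 0.09 in osteocytes (adjusted p = 0.00939).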

How the data were processed

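Affymetrix Rat 230_2 arrays of laser-captured cells were used. The deposited values are linear RMA signals in the unit intensity, per the submitters' processing notes, which list RMA, the affy package (1.38.1), R (3.0.1) and Affymetrix Expression Console without roles, and per the values themselves (2.94 to 28282), of which log2 was taken here. The table held 31042 probe sets. Of these, 20826 were listed with 1 gene, and each of 14217 genes kept the one with the highest mean. Genes above their array's median in at least 5 arrays of a fit were tested (11412, 11600 and 11859 in osteoblasts, lining cells and osteocytes). Limma 3.58.1 in R 4.3.3 fitted 1 mean per treatment and day in each cell type, 60 group means for responses between cell types, and cell type plus day for vehicle. Benjamini-Hochberg adjusted p under 0.05 made a call, and the code was tested on simulated data. The members and lists were chosen with earlier results of these data known. All 8 members, up to 2 pathway genes per direction, comparison and cell type (4 per cell type pair), and 3 like genes per member were to be named, and the other called pathway genes named were chosen after their values were seen. With 3 to 5 arrays a group, precision is limited by their number. No 2 arrays were identical (highest within-group r = 0.99). Marker lists with no call beside a result are not described.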

Additional observations from a re-analysis of the deposited data

Results flagged for a closer look

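2 of 53 groups behind the calls against vehicle held an array far from the others, where chance flags about 1 in 20 groups: Bambi in osteoblast vehicle array 5 of day 85 (3.05, the nearest at 3.81) and Bmp2 in osteocyte vehicle array 5 of day 267 (3.47, the nearest at 5.10).

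The response to the antibody, with both doses averaged, differed between cell types by limma's interaction contrast in 14 of 90 tests of the members. These lay in 2 pairs of cell types, on single days or over the mean of 4 days. In each the osteocyte response was the larger, and osteoblasts minus lining cells gave no call. For osteoblasts and lining cells minus osteocytes, 0.488% and 0.64% of all genes were called on day 183. Over the dosing days these shares were 3.57% and 2.67%, and those of days 29 and 85 are not given here. For osteoblasts minus osteocytes, Bambi differed by -1.40 on day 29, -1.95 on day 183 and -0.99 over the 4 dosing days, Id1 by -1.38 on day 85, -1.21 on day 183 and -0.95 over the dosing days, and Id2 by -0.53 over the dosing days. For lining cells minus osteocytes, Bambi differed by -2.09 on day 183 and -1.19 over the dosing days, Id1 by -1.13 on day 85, -1.16 on day 183 and -0.92 over the dosing days, Id2 by -0.54 and Bmp2 by -0.69 over the dosing days. The adjusted p ran from 3.6e-07 to 0.027. Lining cell Bambi was above its array's median in 48 of 100 arrays, so small changes there could be missed.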

How the results depend on the processing

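No paired analysis was possible because the labels do not name the rat and the replicate numbers follow the order of accession. Over the 8 comparisons of the averaged doses or the stopped dose with vehicle, the 13 member calls in osteocytes stayed within 1.5 times that number in every alternative and ran from 11 to 14 without single arrays. The 4 osteoblast calls became 7 with array weights, 0 with a covariate for signal range and 2 where only the arrays of a comparison were fitted, and ran from 2 to 4 without single arrays. The 1 lining cell call became 0 with no filter, with probe sets averaged and where only the arrays of a comparison were fitted, 2 with quantile normalization, 3 with a covariate for signal range and 4 with array weights, and ran from 0 to 2 without single arrays. The cause was not tested.

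As deposited, the sign turned for osteoblasts minus lining cells in Bmp2 (0.34), Bmp4 (0.21) and Bmp6 (0.39), for osteoblasts minus osteocytes in Bmp4 (0.026), Bmp6 (0.52) and Id1 (0.13), and for lining cells minus osteocytes in Bmp6 (0.13), where the median gene was 0.42, 0.67 and 0.27 higher in the first cell type of each pair. With the mean of probe sets Bmp6 turned to 0.010 for lining cells minus osteocytes and to 0.15 for osteoblast vehicle, day 85 minus day 8. Of 30 osteocyte calls over all comparisons 22 held in every alternative, of 10 in osteoblasts 1 and of 3 in lining cells 0, each under 8 alternatives. Of 13 calls between cell types 9 held under 4 alternatives. All 14 response calls held, but under only 2 alternatives, quantile normalization and no filter. The responses were not refitted with the other settings or without single arrays, so these shares cannot be ranked against each other. The number of arrays limits the precision, and small changes in genes near the bottom of the scale could be missed.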
